A study of Mus musculus with 5 samples.

Results

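The genes described here encode the receptor chains for interleukin 4 (IL-4) and interleukin 13 (IL-13), the cytokines themselves and the transcription factor that relays their signal: Il13ra1, Il13ra2, Il4ra, Il2rg, Il4, Il13 and Stat6. They are 7 of the 51912 gene IDs in each deposited table, and each matched 1 ID by symbol. The set was built around Il13ra2, which stood out in an earlier comparison of these same libraries, and the other 6 genes were added as its receptor family. Differences of the 7 genes between the groups are therefore given as descriptions, without a test.

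RNA was sequenced from tissue labelled dorsolateral prostate of 5 male mice aged 7 months, 2 tamoxifen controls and 3 labelled Ghr deletion. Every mouse carried Ghrflox/flox, the gene for the growth hormone receptor with both alleles floxed, and SV40 C3(1) T-antigen+/0, a viral oncogene under the C3(1) promoter that is used to drive prostate tumours. The deletion mice also carried ROSA26Cre-ERT2+/0, a tamoxifen-inducible Cre recombinase at a locus active in most tissues, so deletion was not limited to a cell type. The controls' labels list no Cre, and an effect of Cre itself cannot be told apart from that of Ghr deletion. All mice received 250 mg/kg tamoxifen on each of 5 days, and tissue was collected 1 month after the last dose.

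IL-4 and IL-13 are cytokines of type 2 immunity, made mainly by T helper cells, innate lymphoid cells, mast cells and basophils. IL-4 binds IL4Rα, which pairs with the common gamma chain (Il2rg) on leukocytes or with IL13Rα1 on epithelial and other non-haematopoietic cells. The IL4Rα and IL13Rα1 pair also serves IL-13, and both pairs act through JAK kinases and STAT6. IL13Rα2, the product of Il13ra2, binds IL-13 tightly, has a short cytoplasmic tail and is best known as a decoy that removes IL-13.

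Library totals ran from 13812454 rounded expected counts (control replicate 2) to 47656212 (control replicate 1). The labelled tissue was poorly matched by its markers. The 4 prostate markers summed to 34.1 CPM (counts divided by the library size in units of 1e6 after TMM adjustment) in control replicate 1 and to between 0.194 and 1.05 CPM in the other 4 libraries. Markers of seminal vesicle, vas deferens and urothelium varied widely within each group. Ghr itself read 14.4 and 31.3 CPM among controls against 8.13, 20.9 and 12.1 with Ghr deletion, so the groups overlapped. The labels name no deleted exon, so a count over the whole gene is a weak check of the deletion.

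Il13ra2, the decoy receptor gene, was scarce in both controls and present in all 3 deletion libraries. It had 3 and 12 counts in control replicates 1 and 2, and 230, 161 and 164 counts in deletion replicates 1, 2 and 3. On the CPM scale the controls read 0.128 and 0.581 and the deletion libraries 8.06, 5.04 and 3.04. The groups did not overlap, and the lowest deletion library lay 5.24-fold above the higher control. Group means were 0.355 ± 0.320 CPM (SD, n = 2) among controls and 5.38 ± 2.53 CPM (SD, n = 3) in the deletion libraries. In tissue RNA, more cells of a type and more RNA per cell cannot be told apart.

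The fitted log2 fold change of Il13ra2 was 3.92 (SE 0.863), deletion over control. Since control replicate 1 held only 3 counts, the fitted size depends on few reads. Pooled over libraries, 555 counts against 15 gave a ratio of 14.2 after scaling by effective library size, with an exact interval of 8.56 to 25.6 at 95% that covers counting error only. By CPM, counting error was small beside the spread between the deletion libraries. The exact Poisson intervals were 7.05 to 9.17, 4.29 to 5.88 and 2.60 to 3.55 CPM in deletion replicates 1, 2 and 3, which do not overlap each other. These intervals take the library scaling as exact, so the gaps between them also hold any scaling error. Deletion replicates 2 and 3 had 161 and 164 counts, and by TPM their order was reversed, at 2.33 and 4.25. The control intervals, 0.0265 to 0.375 and 0.300 to 1.01 CPM, overlap. Without control replicate 1 the log2 fold change was 3.20 and without control replicate 2 it was 5.35, so its size turns on which control is kept while the sign does not.

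The annotation gives Il13ra2 (ENSMUSG00000031289) a pair of protein-coding transcripts on the minus strand of chromosome X, from 147383476 to 147429192 (GRCm38). The longer has 14 exons and 2281 bases and starts at 147429192. The shorter has 11 exons and 1536 bases and starts 25.4 kb downstream, at 147403832. Their coding exons are identical, 383 codons in all, so they differ outside the coding sequence, chiefly in the leader, and the longer has 745 more bases in all. Transcript usage was read from the deposited gene length, which RSEM weights by the estimated abundance of each transcript. That length was 1541.74, 1544.25 and 1544.03 bases in deletion replicates 1, 2 and 3, so the shorter transcript held 99.2%, 98.9% and 98.9% of Il13ra2 molecules. The deletion libraries thus hardly differed in transcript usage, although their levels of the gene spanned 2.65-fold by CPM. In the controls the shorter transcript held 100% of 3 counts and 83.9% of 12 counts, too few reads to compare usage between the groups.

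The sequence around the distal start, to which few Il13ra2 molecules were assigned, is shown to describe the start that was little used. The window of the proximal start, which carried nearly all of them, was not analysed here. Il13ra1, also on chromosome X, is shown beside it as the signalling chain for the same cytokine. Both windows are RefSeq promoters (GRCm38.p6), 250 bases before to 50 after the start, 5′ to 3′. The Il13ra2 window is chrX:147429143-147429442 on the minus strand and the Il13ra1 window chrX:36111858-36112157 on the plus strand. Capitals mark matches, on either strand, to TGANTCA (the AP-1 motif) and TATAAA (the TATA motif); the STAT motifs TTCNNNGAA and TTCNNNNGAA were searched too and had no match in either window.
Il13ra2: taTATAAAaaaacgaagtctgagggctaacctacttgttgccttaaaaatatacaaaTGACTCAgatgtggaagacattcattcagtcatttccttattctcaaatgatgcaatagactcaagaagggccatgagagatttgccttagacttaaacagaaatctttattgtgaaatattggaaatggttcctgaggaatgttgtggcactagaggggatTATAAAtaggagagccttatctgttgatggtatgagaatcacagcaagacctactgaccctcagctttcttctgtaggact
Il13ra1: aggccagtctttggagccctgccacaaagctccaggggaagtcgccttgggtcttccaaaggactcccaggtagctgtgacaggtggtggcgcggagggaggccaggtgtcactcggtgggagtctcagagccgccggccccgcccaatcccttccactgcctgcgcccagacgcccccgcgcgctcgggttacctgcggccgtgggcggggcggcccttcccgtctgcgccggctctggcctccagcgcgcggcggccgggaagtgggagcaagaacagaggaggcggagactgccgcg

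The windows differ in base composition. G and C made up 37.7% of the Il13ra2 window and 71.0% of the Il13ra1 window, where the median of 32851 mouse promoters was 52.7%. The Il13ra2 window held 1 CpG and the Il13ra1 window 28. In the Il13ra2 window TATAAA lay at -248 and -31 from the distal start and TGACTCA at -193, with no overlap between them, and the Il13ra1 window had none of the 4 motifs. Of all promoters 13.6% held TATAAA, 7.81% TGANTCA, 8.30% TTCNNNGAA and 6.95% TTCNNNNGAA. Among the windows of the other members, only those of Il4 held a STAT motif, TTCACAGGAA in one start's window and TTCATGGAA in the other's.

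Il13ra1 (ENSMUSG00000017057; X, 36112110 to 36171259, plus strand, GRCm38) encodes the chain that signals with IL4Rα. Control replicates 1 and 2 read 26.1 and 44.8 CPM and deletion replicates 1, 2 and 3 read 13.4, 24.6 and 29.0 CPM. The groups overlapped, since deletion replicate 3 lay above control replicate 1. The log2 fold change was -0.66 (SE 0.423), within the spread between animals. It was -0.23 when control replicate 2 was left out, -0.38 when deletion replicate 1 was, -1.24 when control replicate 1 and deletion replicate 3 both were, and 0.06 from TPM, which turns the sign.

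Il4ra (ENSMUSG00000030748; 7, 125552120 to 125579474, plus strand, GRCm38) encodes the chain shared by all signalling IL-4 and IL-13 receptors. Expected counts were 145.85 and 256 for the controls, against 233, 416 and 564 for deletion replicates 1, 2 and 3. Scaled to CPM, the controls had 6.25 and 12.4, and the deletion libraries 10.6 ± 2.43 CPM (SD, n = 3), from 8.17 CPM in replicate 1 upward. Control replicate 1 was the lowest library and deletion replicate 2 the highest, and the groups overlapped. The log2 fold change was 0.18 (SE 0.439), and it moved to -0.23 when control replicate 1 was left out and to 0.75 when control replicate 2 was, so its sign was not settled.

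Il2rg (ENSMUSG00000031304; X, 101264378 to 101268255, minus strand, GRCm38) encodes the common gamma chain of lymphocyte cytokine receptors. It had 28 and 32 counts among controls and 17, 13.5 and 42 expected counts in the deletion libraries, or 1.20 and 1.55 CPM against 0.596, 0.438 and 0.780 CPM. By CPM all 3 deletion libraries lay below both controls, with a log2 fold change of -1.17 (SE 0.589). That separation depends on how libraries are scaled, as TMM factors ran from 0.491 in control replicate 1 to 1.61 in deletion replicate 3. By the authors' TPM Il2rg read 0.13 and 1.34 among controls against 0.22, 0.29 and 1.25, so the groups overlapped. T cell markers were also lower by CPM: the 8 markers summed to at least 8.04 CPM in each control and to 1.88 to 3.86 CPM in the deletion libraries. Of the 8, 5 had non-overlapping groups, all lower, as did 10.2% of all genes tested. The 8 macrophage markers summed to 96.5 and 114 CPM against 55.0 to 70.6 CPM, with 6 of 8 lower in every deletion library. Endothelial markers, at 61.6 and 90.8 CPM against 31.6 to 43.0 CPM with 4 of 5 lower, and fibroblast markers, with 3 of 6 lower, also had lower sums in every deletion library. The separations of T cell, macrophage, endothelial and fibroblast sums depend on the same TMM scaling as that of Il2rg. They were not checked on TPM. Pan-leukocyte sums overlapped, at 1249 and 147 CPM among controls against 542, 165 and 37.0 CPM, with 3 of the 5 markers lower in every deletion library. Cd52 alone read 1211 CPM in control replicate 1. Smooth muscle and basal epithelium sums overlapped too. The part of cell content in the Il2rg values was not tested.

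Stat6 (ENSMUSG00000002147; 10, 127642986 to 127660957, plus strand, GRCm38) encodes the factor that both receptor pairs activate. It read 72.3 and 69.9 CPM among controls against 57.7, 44.2 and 75.3 CPM with Ghr deletion. The controls were nearly equal and deletion replicate 3 lay above them, so the groups overlapped (log2 fold change -0.27, SE 0.307). Stat6 RNA says nothing of STAT6 phosphorylation, which was not measured.

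The cytokine genes were at the limit of detection. Il4 (ENSMUSG00000000869; 11, 53602982 to 53618669, minus strand, GRCm38) and Il13 (ENSMUSG00000020383; 11, 53631324 to 53634702, minus strand, GRCm38) each had 0 counts in 4 libraries and 1 count in deletion replicate 3. Neither passed the filter on low counts, and no fold change is given. Counts of 0 allow up to 3 counts, which stand for 0.128 and 0.145 CPM among controls and 0.105 and 0.0940 CPM in deletion replicates 1 and 2. The data therefore do not show whether either ligand differed between the groups.

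**Figure D1:**
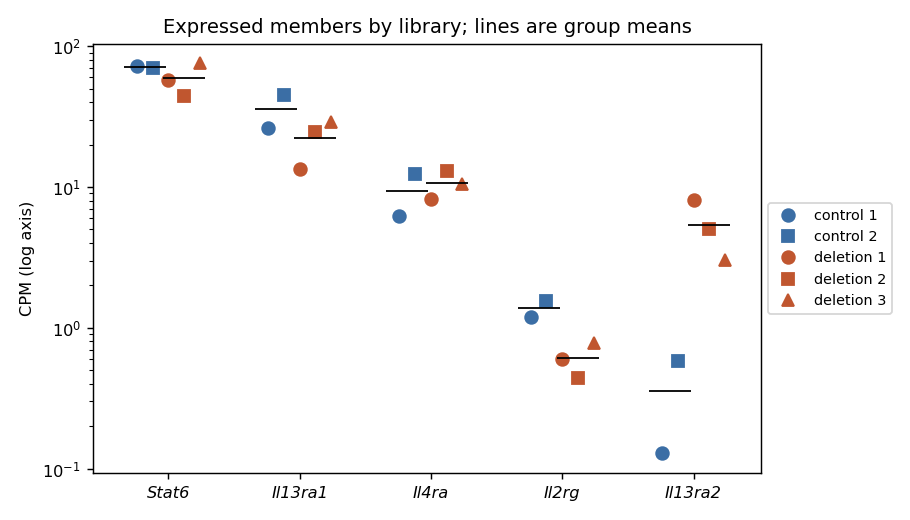
CPM of the 5 members that passed the low-count filter, on a log axis, with a point for each library (blue, tamoxifen control; orange, Ghr deletion) and a line at each group mean. Il13ra2 reads 0.128 and 0.581 CPM among controls and 3.04 to 8.06 CPM in the deletion libraries, while Stat6, Il13ra1 and Il4ra overlap between the groups. Il4 and Il13, with 0 or 1 count, are not drawn.

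Of the 7 members, 5 passed the low-count filter. Among those, by CPM, Il13ra2 had non-overlapping groups with the deletion libraries higher and Il2rg with the deletion libraries lower. Over all 18615 genes tested the groups did not overlap for 19.6%, 9.43% higher and 10.2% lower in the deletion libraries. Since the set was chosen on this contrast, nothing is read from the members' share.

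Levels of different genes were compared within a library on the authors' TPM, which are per transcript length. Stat6 had the highest TPM of the 7 genes in all 5 libraries, from 3.88 in control replicate 1 to 45.54 in deletion replicate 3. TPM of the receptor chains and Stat6 were lowest in control replicate 1, the library with the highest seminal vesicle marker sum. For that reason levels are compared between genes of 1 library here. In both controls the receptor chains ranked Il13ra1, Il4ra, Il2rg and Il13ra2 from high to low. Control replicate 2, for instance, had TPM of 12.77, 3.72, 1.34 and 0.40 in that order.

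The order of the chains differed in the deletion libraries. Il13ra2 was above Il13ra1 in deletion replicate 1, at TPM of 3.23 and 2.03. It lay between Il13ra1 and Il4ra in deletion replicate 2, at 4.34 for Il13ra1, 2.33 for Il13ra2 and 2.24 for Il4ra, where Il13ra2 and Il4ra were close. In deletion replicate 3 it was below both, at 15.46 for Il13ra1, 5.98 for Il4ra and 4.25 for Il13ra2. Il2rg was the lowest chain in all 3 deletion libraries, at TPM of 0.22, 0.29 and 1.25.

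As a share of the summed TPM of the 4 chains, Il13ra2 made up 1.23% and 2.19% among controls and 46.2%, 25.3% and 15.8% in deletion replicates 1, 2 and 3. These shares do not depend on how libraries are scaled to each other. That of control replicate 1 is imprecise, since it rests on 3 counts and a TPM given as 0.02. The share of Il13ra1 was 73.5% and 70.0% among controls and 29.0%, 47.2% and 57.4% in the deletion libraries. Il4ra kept to a narrow range, 17.3% and 20.4% among controls and 21.6%, 24.3% and 22.2% in the deletion libraries. Per length, there were 84.1 and 34.4 Il13ra1 transcripts for each Il13ra2 transcript in the controls, against 0.690, 2.03 and 3.97 in the deletion libraries. These ratios came from expected counts over gene length, so they differ somewhat from ratios of the TPM shares above. Among the deletion libraries the ratio of decoy to signalling chain thus spanned a wide range, with deletion replicate 3 nearest to the controls.

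**Figure D2:**
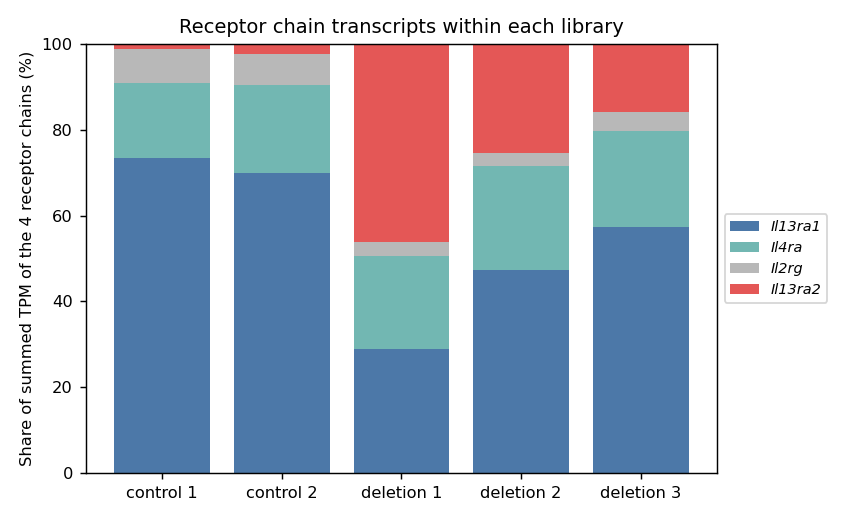
Share of the summed TPM of the 4 receptor chain genes in each library, in percent, with controls on the left. Il13ra2 takes 1.23% and 2.19% of the sum among controls and 15.8% to 46.2% in the deletion libraries, and Il4ra stays between 17.3% and 24.3% in all 5.

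The rest of the pathway was followed in 8 lists of 103 genes in all, of which 75 passed the filter. In the edgeR quasi-likelihood test with Benjamini-Hochberg adjustment 0 of these 75 passed, as did 0 of all 18615 genes (0% called, smallest adjusted p = 0.985). Before adjustment 4 list genes had p under 0.05, all lower in the deletion libraries, as did 915 of all genes (4.92%), 601 lower and 314 higher. Among all genes DESeq2 passed 164 (0.899% of those it tested) and limma-voom 0, and neither passed any of the 75. The 4, named after their values were seen, were Cish, a feedback inhibitor (log2 fold change -1.21, SE 0.410), Il2rb (-1.82, SE 0.750), Il31ra (-3.16, SE 1.27) and Mgl2, a macrophage lectin (-2.06, SE 0.697). The groups of Il31ra overlapped, and its value rests on control replicate 1 at 8.51 CPM. The median log2 fold change was -0.26 over the 75 genes and 0.00 over all genes. Groups did not overlap, with deletion higher, for 3 of the 75 and for 9.43% of all genes. With deletion lower, they did not overlap for 11 of the 75 and for 10.2% of all genes.

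Relays of the receptors were expressed in all libraries. Jak1, the kinase bound to IL4Rα and other receptor chains, had the highest mean CPM of the JAK genes, at 209 and 301 CPM among controls against 147, 367 and 287 with Ghr deletion. Pik3r1, a regulatory subunit of phosphoinositide 3-kinase, read 364 and 188 CPM against 203, 253 and 199, and its catalytic partner Pik3ca 88.0 and 89.7 against 88.5, 116 and 102. All 12 genes of this list passed the filter, 0 passed the test in either direction, and their median log2 fold change was 0.05. Groups did not overlap for 1 gene of the 12, against 19.6% of all genes tested. That gene was Irs2, an adaptor of the insulin and IL-4 receptors named after its values were seen. It read 7.36 and 17.0 CPM among controls against 20.7, 39.9 and 21.3 with Ghr deletion.

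Brakes on the signal also showed no call, with a median of -0.24 over 11 tested genes. Parp14, known as a STAT6 cofactor although listed here, read 107 and 159 CPM against 51.3 and 59.1 in deletion replicates 1 and 2, with deletion replicate 3 the highest library, and the phosphatase gene Ptpn11 165 and 89.8 against 102, 115 and 89.1. Pias1, an inhibitor of STAT proteins, read 41.8 and 43.7 CPM among controls against 61.3, 73.0 and 56.2 with Ghr deletion. Its groups did not overlap, and its log2 fold change was 0.57 (SE 0.266; edgeR adjusted p = 0.991). The other non-overlapping genes of the list, Socs5, Cish and Inpp5d, were lower in the deletion libraries, with log2 fold changes of -0.75, -1.21 and -0.91. Of all genes tested, 9.43% were higher without overlap and 10.2% lower. Socs1, the best known brake on IL-4 signalling, had too few counts to test, with 0.171 and 0.194 CPM among controls and 0.0557 to 0.245 in the deletion libraries.

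Genes that share the gamma chain's receptors were below 0 by fold change in all 7 tested cases, against 9225 of all 18615 genes, the median being -0.97 on the log2 scale and 0 past the test. Il15ra, the IL-15 receptor chain, read 27.9 and 26.6 CPM among controls against 19.2, 23.6 and 25.1 with Ghr deletion. Il15 itself read 16.5 and 5.28 against 3.68, 5.54 and 6.18, and Il2rb, a chain of the IL-2 and IL-15 receptors, 4.66 and 2.28 against 1.09, 0.313 and 1.52. The deletion libraries lay below both controls for 4 of the 7, among them Il15ra and Il2rb, and for 10.2% of all genes. By CPM, T cell markers were lower in the same libraries, and their part in these values was not tested.

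Other class I cytokine receptors gave a median of -0.26 over 11 tested genes. Lifr, the leukaemia inhibitory factor receptor, read 370 and 219 CPM among controls against 381, 619 and 278 with Ghr deletion, and its signalling partner Il6st 309 and 283 against 261, 519 and 332. Il11ra1, the IL-11 receptor chain, read 31.3 and 27.8 against 26.0, 27.3 and 19.8. None of the 11 passed the test, and the highest log2 fold change in the list was 0.70, that of the oncostatin M receptor gene Osmr.

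Genes tied to the decoy receptor by other routes included Tmem219, a reported co-receptor of IL13Rα2, at 20.1 and 8.91 CPM among controls against 11.1, 15.4 and 6.18 with Ghr deletion. Tgfb1, whose product IL13Rα2 is reported to induce, read 2.70 and 4.41 against 2.91, 1.75 and 7.18. Fosl2, an AP-1 subunit, read 66.8 and 84.1 against 27.7, 145 and 60.9. The groups overlapped for all 5 genes of this list, among them Chil1, which encodes a reported ligand of IL13Rα2 and had at most 24 counts in any library.

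Upstream of the ligands, Gata3, a regulator of type 2 lymphocytes that epithelia also express, read 103 and 64.0 CPM among controls against 75.9, 39.8 and 65.7 with Ghr deletion. Il1rap, a co-receptor for IL-33, read 18.3 and 18.6 against 15.8, 18.8 and 18.7, and Il17ra, a chain of the IL-25 receptor, 12.0 and 9.68 against 8.31, 19.5 and 7.55. None of the 7 tested genes passed, and groups overlapped for all 7 (median log2 fold change -0.06). Il5 and Il25 had at most 6 counts in any library.

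No target of the pathway passed the test in either direction. In the list of alternative macrophage activation and STAT6 targets, 17 of 22 genes were tested, 12 were below 0 by fold change, against 9225 of all 18615 genes, and the median was -0.61. By CPM, the macrophage marker sum was lower in the same libraries, and its part in these values was not tested. Fn1, the fibronectin gene, read 91.8 and 121 CPM in the controls against 138, 82.4 and 134, and Tgm2, a transglutaminase, 48.3 and 71.2 against 49.9, 18.6 and 49.2. Klf4, a transcription factor, read 10.2 in both controls and 4.59, 12.4 and 10.9 in the deletion libraries. In the list of epithelial IL-13 responses 5 of 16 genes were tested, 4 were above 0 by fold change and 1 below, and the median was 0.53. Spdef, a factor of secretory cell differentiation, read 15.3 and 10.5 CPM against 15.4, 31.2 and 12.5, and Postn, the periostin gene, 7.62 and 48.1 against 26.6, 12.3 and 44.6. Fcgbp, a mucus protein, read 2.05 and 5.33 against 1.09, 1.53 and 40.6. The mucin gene Muc5ac, a hallmark of the airway response to IL-13, had 1 count in 1 library and 0 in the others.

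**Figure D3:**
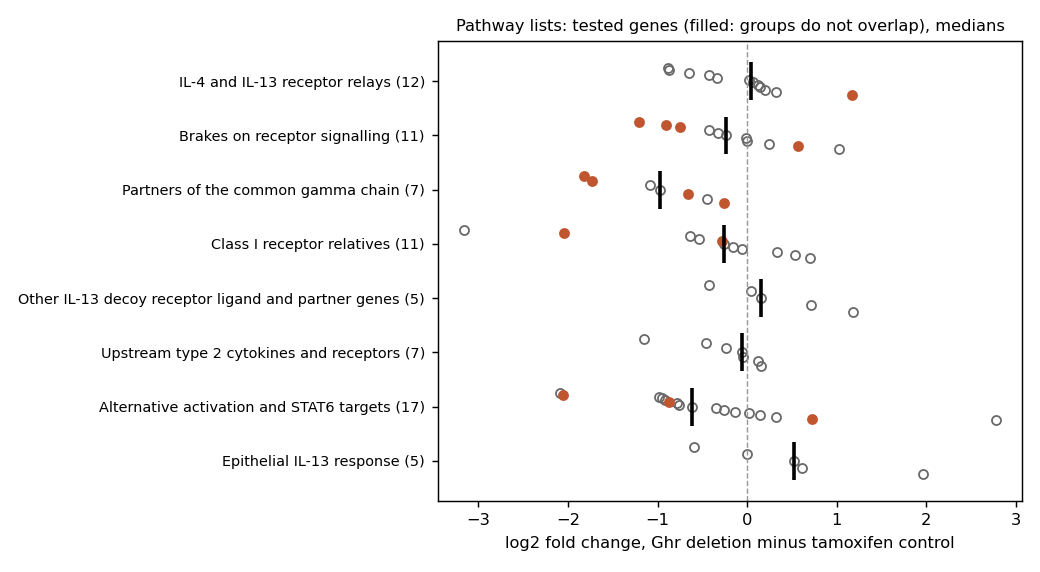
Log2 fold change of each tested gene in the 8 pathway lists, deletion minus control, with the number tested in brackets and a bar at each list's median. Filled points are genes whose groups did not overlap. Medians run from -0.97 for partners of the common gamma chain to 0.53 for the epithelial IL-13 response, and 0 of the 75 genes passed the edgeR test.

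The genes whose pattern over the 5 libraries was most like that of Il13ra2 were found by the root mean square difference of log2(CPM + 0.5), centred on each gene's mean, among 12562 genes with a mean of at least 1 CPM. Those given here were Sele, the endothelial adhesion molecule E-selectin, at 0.371, the sialidase gene Neu2 at 0.395, Pik3r5 at 0.455 and the cyclic AMP phosphodiesterase gene Pde4d at 0.457. The median over all genes compared was 1.48. Neu2 read 0.299 and 1.55 CPM among controls against 8.55, 5.42 and 2.45 with Ghr deletion, the same order of libraries as Il13ra2. Pde4d read 6.29 and 17.3 against 80.2, 74.4 and 22.6. These 4 had control replicate 1 lowest and control replicate 2 next. With 5 libraries many patterns coincide, and these genes were not tested.

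Tissue and cell markers are set beside Il13ra2 because the libraries differ in content. Seminal vesicle markers summed to 669821 and 5407 CPM among controls and to 241736, 312028 and 2135 CPM with Ghr deletion. Vas deferens and epididymis markers summed to 6.33 and 1602 CPM against 5149, 4359 and 34.2 CPM, and urothelium markers to 80.0 and 25.2 CPM against 47.0, 68.4 and 164 CPM. All 3 sums overlapped between the groups. Of the 6 seminal vesicle markers, however, 4 (Svs1, Svs3a, Svs4 and Svs6) were lower in every deletion library, as were 10.2% of all genes tested. Svs1 read 78234 and 171 CPM among controls against 6.20, 0.0626 and 9.63 CPM with Ghr deletion, while Svs2 and Svs5 overlapped. Within each group the vas deferens sums ran in the same order as Il13ra2 by CPM. Among the deletion libraries that order did not hold by Il13ra2 TPM. Deletion replicate 3, the library with the highest urothelial sum and the lowest seminal vesicle sum, had the lowest Il13ra2 of its group by CPM, at 3.04. By the authors' TPM it had the highest, at 4.25 against 3.23 and 2.33 in deletion replicates 1 and 2. Deletion replicates 1 and 2, which shared high vas deferens markers, had 8.06 and 5.04 CPM. Without control replicate 1 and deletion replicate 3 together the log2 fold change of Il13ra2 was 3.48. The part of unlike tissue content in the Il13ra2 values was not tested further.

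Eosinophil markers summed to 0 and 0.0484 CPM among controls and to 1.05, 1.19 and 0.111 CPM with Ghr deletion, and 2 of the 4 (Prg2 and Ccr3) were at 0 in every library. No single marker of the 4 had non-overlapping groups. Epx had 28 and 38 counts in deletion replicates 1 and 2 but 0 in deletion replicate 3, where Siglecf had 6. The 9 mast cell and basophil markers summed to 18.4 and 32.3 CPM among controls and to 58.0, 108 and 85.0 CPM with Ghr deletion, and Kit, a receptor that other cells also express, was the only 1 of the 9 to be higher in every deletion library. Kit read 8.94 and 31.8 CPM against 57.7, 108 and 84.9. Without Kit the other 8 summed to 9.41 and 0.581 CPM among controls and to 0.350, 0.564 and 0.130 CPM with Ghr deletion. Control replicate 1 held most of these, with 104 counts of Hdc, 42 of Cma1, 33 of Cpa3 and 29 of Mcpt4, where no other library had more than 16 of any. Cpa3, Fcer1a and Cma1 had non-overlapping groups, lower with deletion, as did 10.2% of all genes tested. Ms4a2 and Mcpt8 were at 0 in all 5 libraries. Epithelial markers summed to 892 and 1402 CPM against 868, 1892 and 1743, and fibroblast markers to 322 and 518 CPM against 247, 78.8 and 209.

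**Figure D4:**
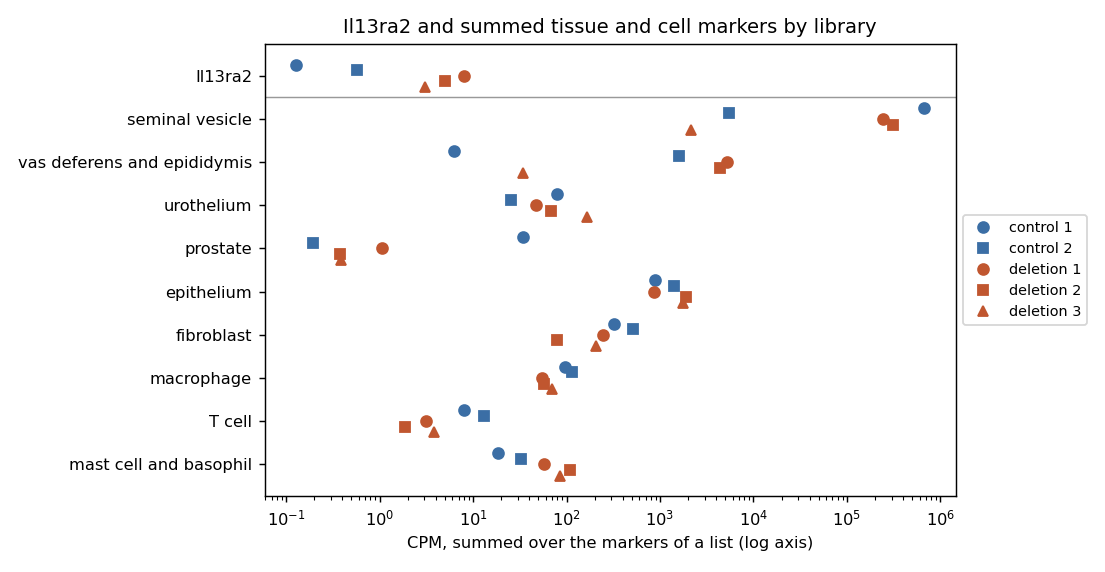
Il13ra2 (top row) and the summed CPM of 9 marker lists in each library, on a log axis; symbols mark replicates and colours the groups. The seminal vesicle sum runs from 2135 to 669821 CPM and overlaps between the groups. On this TMM-scaled axis the T cell and macrophage sums are lower in all deletion libraries, and the mast cell and basophil sum is higher through Kit.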

How the data were processed

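Total RNA libraries (Illumina TruSeq Stranded Total RNA, per the labels' protocols) were processed with bcl2fastq 2.20.422, STAR 2.5.3a and RSEM 1.3.0 on GRCm38, per the submitters' processing notes; for annotation release and strand setting the sources used here give nothing. The authors deposited, per the file headers, unnormalized expected counts, TPM, FPKM (not used) and transcript lengths per gene, 1 table per library.

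Expected counts were rounded and fitted with edgeR 4.0.16 (R 4.3.3; filterByExpr, TMM, robust glmQLFit and glmQLFTest, group as the only term), with Benjamini-Hochberg adjusted p under 0.05 over 18615 genes. SE is the log2 fold change over the root of F. DESeq2 1.42.0 and limma-voom (limma 3.58.1) were alternatives. Symbols came from a GENCODE M21 table (51633 of 51912 IDs matched), positions from GENCODE M21; Chi3l1 matched as Chil1. The 3 genes of highest mean CPM per list were named, with exceptions stated. Members and lists were chosen with earlier results of these data known. The series' design text calls the replicates biological. Of the 5 genes most like Il13ra2 by pattern, 1 is not reported here.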

Additional observations from a re-analysis of the deposited data

How the results depend on the processing

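The count of genes past the adjusted threshold was 0 with RLE or upper quartile factors, without the 50 most abundant genes, with no filter and in limma-voom. It was 164 in DESeq2, 0 to 48 when 1 library was left out (48 when control replicate 2 was dropped, 2 when deletion replicate 3 was) and 85 when control replicate 1 and deletion replicate 3 were both dropped. With the replicate number as a block it was 8. The titles number replicates within each group and name no pairing. Deviations from the group means correlated at 0.131 for number 1 and -0.136 for number 2. With 2 controls the deviations of the controls mirror each other, so these values cannot settle whether libraries were paired. No pathway list gene passed under any of these 13 alternatives. The log2 fold change of Il13ra2 was positive in all 14 alternatives, 3.20 to 5.35 when 1 library was left out, 4.36 with the block and 3.44 from TPM. That of Il2rg was negative in all 14 (-1.58 to -0.28). From TPM those of Il13ra1, Stat6 and Il4ra were 0.06, 0.67 and 0.67, a change of sign for the first pair; Il4ra moved to -0.23 when control replicate 1 was dropped and to 0.00 when deletion replicate 2 was. The cause was not tested. With 2 controls, Il13ra2 rests on 15 control counts, and Il4 and Il13 cannot be compared at this depth.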

Other observations

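Some list genes stood apart in deletion replicate 3 alone, the library with the uroplakin transcripts; they were picked after their values were seen and were not tested. Pparg, a nuclear receptor of fat cells and urothelium, read 9.73 CPM there and between 0.345 and 0.629 CPM in the other 4 libraries. Fcgbp read 40.6 CPM there and at most 5.33 elsewhere. Upk3a and Upk3b, uroplakins of the bladder lining, read 19.4 and 15.7 CPM there and at most 0.0856 CPM elsewhere. Il13ra2 was lower there than in deletion replicates 1 and 2 by CPM, at 3.04, but higher by TPM, at 4.25 against 3.23 and 2.33. Socs3, a cytokine-induced inhibitor, was highest in deletion replicate 2, at 18.4 CPM against 0.421 to 5.08 CPM in the other libraries. Il31ra, a receptor chain for IL-31, was highest in control replicate 1, at 8.51 CPM against 0.0940 to 1.09 CPM elsewhere.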
